A study of Rattus norvegicus with 6 samples.

Results

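The genes described here are those of rat liver whose response to added dietary fat ran opposite ways at normal and at high dietary protein. The fat difference of a gene is its log2 level on a high-sucrose, high-fat diet minus its level on the matching high-sucrose diet low in fat, taken at normal protein (NP-HS-HF minus NP-HS) and at high protein (HP-HS-HF minus HP-HS). A gene was a member where the fat differences had opposite signs and each was at least 1.2-fold, or 0.26 on the log2 scale. Of 11421 named genes measured above a low-signal limit, 71 were members, or 0.622%. At normal protein 36 of them (0.315% of all genes) were lower with fat and at high protein higher, and 35 (0.306%) showed the reverse. More genes, 102 or 0.893%, went the same way at both protein levels by the same limit. Because the same 4 arrays chose the members, their fat differences are descriptions, and no p-value is given.

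The livers came from 30 adult male Wistar rats, of which 5 were fed each of 6 diets for 5 weeks (33 to 37 days). The diets were normal protein low in fat (NP), the same with high sucrose (NP-HS), normal protein with high sucrose and high fat (NP-HS-HF), and the corresponding high-protein diets HP, HP-HS and HP-HS-HF. All rats first adapted for 10 days to the normal-protein diet and were killed in the fed state, 2 h after a calibrated meal of 87.6 kJ. For each diet, RNA of its 5 rats was combined in equal amounts and hybridised to 1 Affymetrix whole-transcript array. A pool hides the spread between rats, and with 1 array per diet no value has a replicate error, so a difference between diets cannot be told apart from a difference between pools or arrays. The nutrient contents of the diets are not used here. The labels name rats as the organism and in the husbandry text but mice in the source field, and rat is used here.

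Dietary fat reaches the liver as fatty acids that are oxidised, stored or exported, and dietary protein brings amino acids whose nitrogen leaves as urea. Hormones such as growth hormone, insulin and glucagon report the nutrient supply to the hepatocyte and change transcription there. Growth hormone acts through the kinase JAK2 and the transcription factor STAT5, which binds sites of the form TTCNNNGAA and switches on feedback inhibitors of its own pathway.

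The arrays had close medians (6.22 to 6.25) and pairwise correlations of 0.9949 to 0.9964 over 29214 probe sets. The 15 hepatocyte markers, among them albumin, had mean levels of 11.77 to 13.82, and their summed level stayed within -0.01 to 0.02 of its mean on all 6 arrays. Fat differences were small for most genes, with a SD over genes of 0.148 at normal and 0.168 at high protein. At 1.2-fold or more 832 genes differed with fat at normal protein, 427 of them higher and 405 lower (3.55% of all genes lower). At high protein 1008 differed, 527 higher (4.61%) and 481 lower (4.21%). The fat differences at the protein levels share no array, and their Pearson correlation over genes was 0.061 (Spearman 0.056), a description over genes that are not independent of each other. Opposite signs at any size were found for 48.3% of genes.

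**Figure D1:**
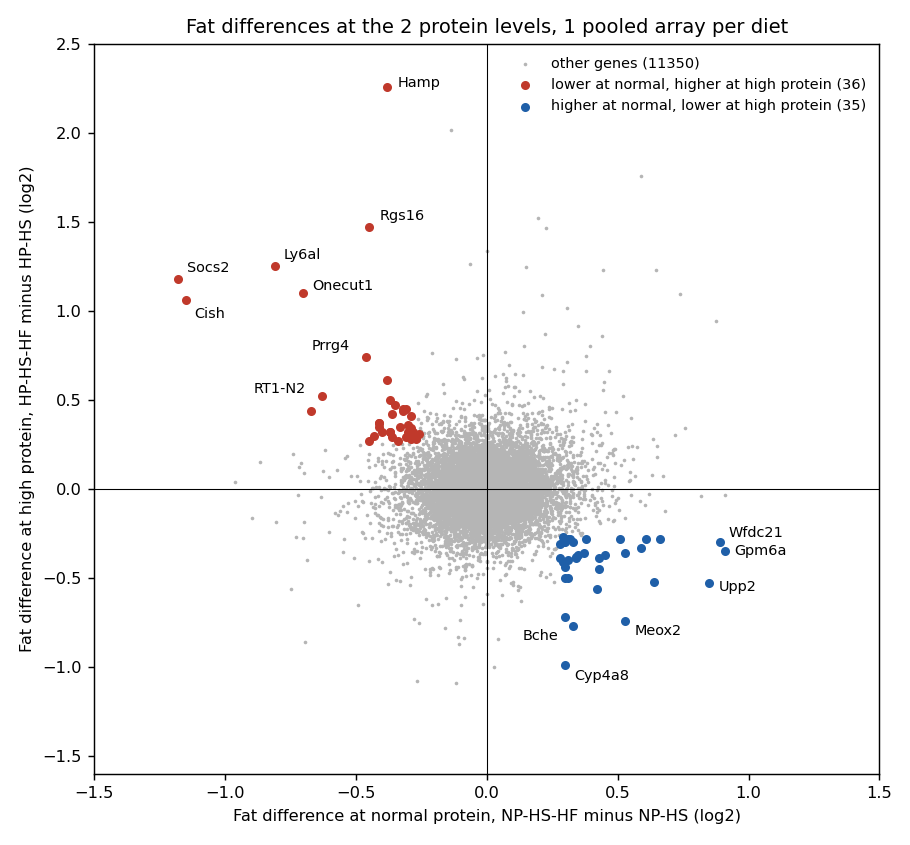
Each point is 1 of 11421 genes, with the log2 fat difference at normal protein on the x axis and at high protein on the y axis, from 1 pooled array per diet. The 36 genes at upper left (red) were lower with fat at normal and higher at high protein, with Hamp at 2.26 and Socs2 and Cish farthest left, and the 35 genes at lower right (blue) were the reverse and none of them was 1.5-fold at both levels.

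The members farthest from 0 at both protein levels were feedback inhibitors of growth hormone signalling. Socs2, the suppressor of cytokine signalling that restrains the growth hormone receptor, read 9.46 on NP, 9.72 on NP-HS and 8.54 on NP-HS-HF, and 9.12 on HP, 8.33 on HP-HS and 9.52 on HP-HS-HF. It was thus 2.27-fold lower with fat at normal protein and 2.27-fold higher at high protein, a difference between the fat differences of 2.37 that ranked 2 among all genes by size. HP-HS was the lowest array and NP-HS-HF the next lowest, while the other 4 lay between 9.12 and 9.72. Cish, a relative that docks on the same receptors, read 8.71, 8.49 and 7.34 on NP, NP-HS and NP-HS-HF, and 8.73, 7.59 and 8.64 on HP, HP-HS and HP-HS-HF. With fat it was 2.22-fold lower at normal protein and 2.08-fold higher at high protein (difference 2.20, rank 3). The same pair of arrays, NP-HS-HF and HP-HS, held its lowest values, and on low fat its levels at the protein levels differed by 0.02. Socs2 and Cish were the only genes past 2-fold in opposite ways, against 0 genes past 2-fold the same way.

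The Cish promoter is shown because it carries 4 copies of the STAT motif TTCNNNGAA, here in capitals, on the 250 bases before its start (RefSeq, GRCr8 chr8:116850719-116850968, plus strand, 5′ to 3′). They begin 241, 230, 136 and 119 bases before the start.
Cish: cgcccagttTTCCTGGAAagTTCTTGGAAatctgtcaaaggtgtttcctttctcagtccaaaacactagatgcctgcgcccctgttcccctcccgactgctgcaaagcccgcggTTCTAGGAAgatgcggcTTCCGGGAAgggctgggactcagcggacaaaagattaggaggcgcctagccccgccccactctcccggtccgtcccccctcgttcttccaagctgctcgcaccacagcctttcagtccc
Of 33469 promoter windows of this length in the table, 7.67% held the motif and 0.0209% (7 windows) held 3 or more. Promoters were in the table for 57 members, and 9 of these (15.8%) held the motif, 5 of 26 that were lower with fat at normal and higher at high protein and 4 of 31 of the reverse. The 57 members had 63 windows, and a member counted if any of its windows matched. All windows were counted singly and were not limited to genes measured here, so the member and window shares are not like for like. Binding was not measured, and a match only says that the letters are there.

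Onecut1 (HNF6), a hepatocyte transcription factor known to respond to growth hormone, went the same way as Socs2 and Cish. It read 10.20, 10.10 and 9.40 on NP, NP-HS and NP-HS-HF, and 10.17, 9.73 and 10.83 on HP, HP-HS and HP-HS-HF. With fat it was 1.62-fold lower at normal and 2.14-fold higher at high protein (difference 1.79, rank 7), and NP-HS-HF was lowest and HP-HS-HF highest of the 6 arrays. Of the 25 genes measured on the growth hormone axis list these were the only 3 members, beside 0.622% of all genes. The list's median difference was 0.01 against -0.003 over all genes. A1bg and Igfbp1 were higher with fat at both protein levels. The signal carrier Stat5b had fat differences of -0.17 and 0.24, the receptor Ghr -0.11 and -0.09, and Igf1, the secreted growth factor, -0.12 and 0.04. The prolactin receptor gene Prlr ran the other way at 0.20 and -0.28. Cyp2c12, a P450 that is abundant in female rat liver, was 0.75 higher with fat at high protein and -0.02 at normal. The male-specific P450 gene Cyp2c11 had fat differences of 0.03 and -0.03.

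**Figure D2:**
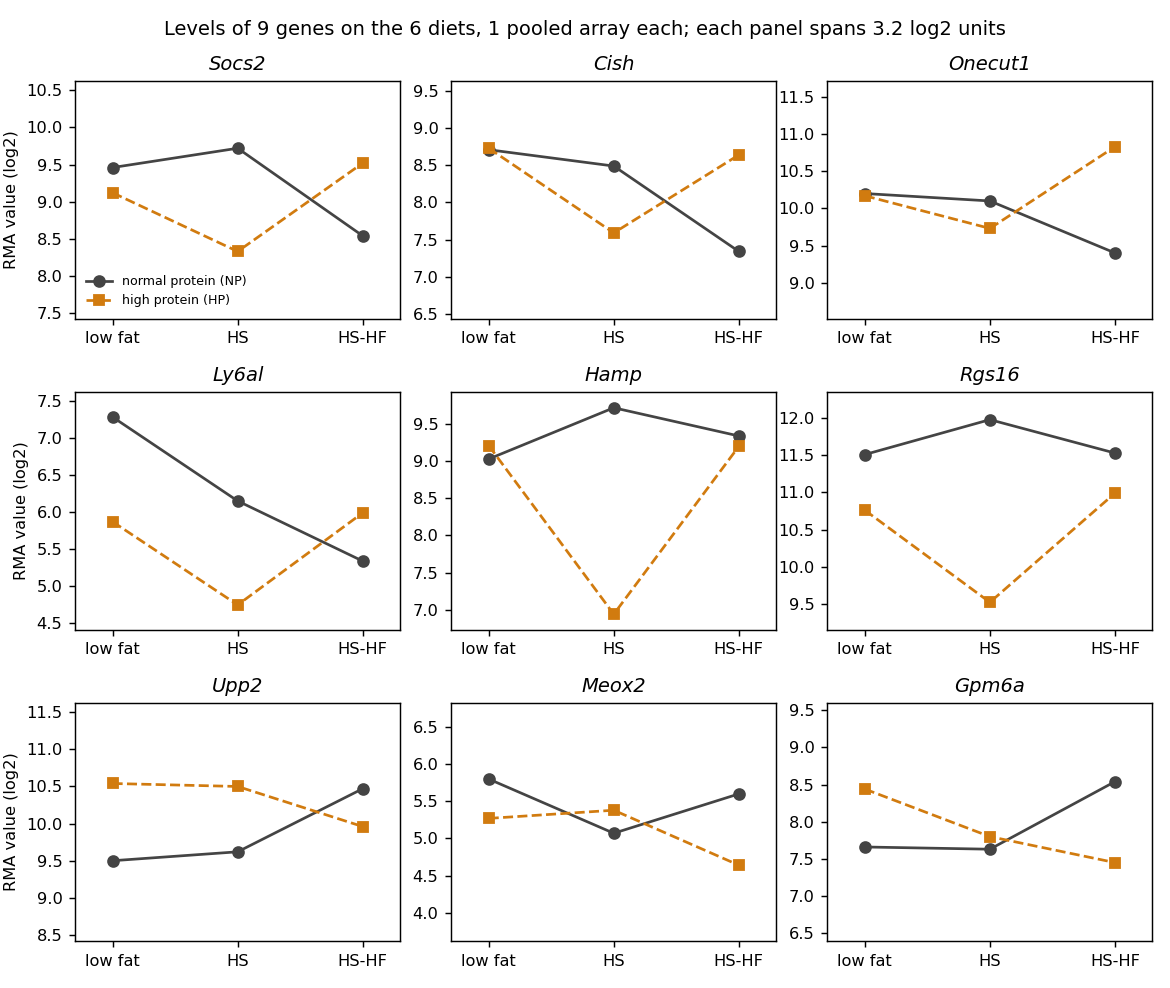
RMA log2 values of 9 genes on the 6 diets, with the backgrounds low fat, HS and HS-HF on the x axis, 1 pooled array per point, grey circles for normal and orange squares for high protein. The lines cross between HS and HS-HF for Socs2, Cish, Onecut1, Ly6al, Upp2, Meox2 and Gpm6a, but not for Hamp and Rgs16. The HP-HS point is the lowest for Hamp (6.94) and Rgs16 (9.52), as it also is for Socs2 (8.33) and Ly6al (4.75).

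Hamp, which encodes the iron-regulating hormone hepcidin, had the largest difference of all genes, 2.64. It read 9.03 on NP, 9.72 on NP-HS and 9.34 on NP-HS-HF, and 9.21 on HP, 6.94 on HP-HS and 9.20 on HP-HS-HF. The fat difference was -0.38 at normal protein and 2.26 at high protein, the latter 4.79-fold. The HP-HS array stood alone, since the other 5 lay between 9.03 and 9.72, so the size of the difference rests on that 1 pool. Of the 24 genes on the iron and hepcidin list Hamp was the only member, beside 0.622% of all genes. The hepcidin inducer Bmp6 had fat differences of 0.09 and -0.36 and its co-receptor Hjv 0.09 and -0.40, opposite in sign to those of Hamp. Id1, a gene switched on by BMP signals, had 0.17 and 0.12, and Smad7, another, had 0.01 and -0.17. Hmox1, which releases iron from haem, was 0.56 higher with fat at high protein and 0.01 at normal.

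The Hamp promoter is shown with its matches to the STAT motif (117 to 109 bases before the start) and to the BMP-response core GGCGCC (129 to 124 bases before it) in capitals (RefSeq, GRCr8 chr1:95300272-95300521, minus strand, 5′ to 3′).
Hamp: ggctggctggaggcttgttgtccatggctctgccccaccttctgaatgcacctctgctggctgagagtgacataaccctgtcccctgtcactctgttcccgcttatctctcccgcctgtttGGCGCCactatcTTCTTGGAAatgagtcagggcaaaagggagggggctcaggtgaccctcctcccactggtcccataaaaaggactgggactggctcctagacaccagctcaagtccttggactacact
The core GGCGCC was found in 8.69% of all windows and in 13 of the 57 member genes (22.8%). As above, the first share counts windows and the second genes with any matching window, so they are not like for like.

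Rgs16, a GTPase-activating protein whose liver expression is known to follow carbohydrate supply through ChREBP, had a similar profile. It read 11.51, 11.98 and 11.53 on NP, NP-HS and NP-HS-HF, and 10.76, 9.52 and 10.99 on HP, HP-HS and HP-HS-HF. Fat went with a level 1.37-fold lower at normal and 2.77-fold higher at high protein (difference 1.92, rank 6). All 3 high-protein arrays lay below all 3 normal-protein arrays, so here the order of the protein levels did not turn with fat. It was the only member among 25 genes of glycolysis, fructose use and the ChREBP axis, beside 0.622% of all genes.

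Ly6al, annotated as a Ly6-family gene, read 7.28, 6.15 and 5.34 on NP, NP-HS and NP-HS-HF, and 5.87, 4.75 and 5.99 on HP, HP-HS and HP-HS-HF. Its fat difference was -0.81 at normal and 1.25 at high protein (difference 2.06, rank 5). The values were low and spread widely, with NP highest and HP-HS lowest. The HP-HS value lay below 5.14, the low-signal limit set on means over the arrays. RT1-N2, a non-classical class I histocompatibility gene, had 8.26 and 7.62 on NP-HS and NP-HS-HF and 7.75 and 8.27 on HP-HS and HP-HS-HF. Both belong to families of near-identical genes whose RNA may bind each other's probes, so their identity is uncertain. Socs2, Cish, Ly6al and Onecut1 were the only 4 genes opposite by 1.5-fold at each level, all of them lower with fat at normal protein, and 5 genes passed 1.5-fold the same way.

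Many interferon-stimulated genes were lower with fat at normal protein. Of 34 measured, 15 were lower by 1.2-fold or more at normal protein and 4 at high protein, beside 3.55% and 4.21% of all genes. Their median fat difference was -0.23 at normal and -0.06 at high protein (-0.002 and -0.006 over all genes), and the difference was above 0 for 26 of 34, where 49.2% of all genes had one above 0. Rtp4, an interferon-induced chaperone of membrane receptors, read 7.75, 7.92 and 7.25 on NP, NP-HS and NP-HS-HF, and 7.88, 7.46 and 7.90 on HP, HP-HS and HP-HS-HF. Its fat differences of -0.67 and 0.44 made it a member, with NP-HS-HF the lowest array. Oasl2, of the oligoadenylate synthetase family of antiviral sensors, was the other member, with -0.33 and 0.35. Members were thus 2 of the 34, beside 0.622% of all genes. Of the 34, 32 were below 0 with fat at normal protein. By 1.2-fold or more at both levels, 4 were lower and 1 was higher. Whether the levels differ was not tested. Oas1a had -0.96 and 0.04, Usp18, which dampens the interferon receptor, -0.90 and -0.17, and the antiviral enzyme gene Rsad2 -0.71 and 0.15. The Oas genes are close paralogs that the array may not separate. The summed level of 14 lymphocyte and neutrophil markers was lowest on NP-HS-HF (-0.26 against the mean of the arrays) and ran from -0.02 to 0.15 on the other 5. Gene by gene, 11 of the 14 were lower with fat at normal protein (median -0.07), 2 of them by 1.2-fold or more. At high protein 8 were lower (median -0.03). The summed level of 16 macrophage markers was also lowest on NP-HS-HF, at -0.14, but nearly as low on NP, at -0.12. Its highest, 0.16, was on HP-HS. Of these markers 12 were lower with fat at normal protein (median -0.12) and 13 at high protein (median -0.20). The part of either cell type in the interferon values was not tested. In bulk liver RNA, fewer cells of a type and less RNA per cell cannot be told apart.

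The Oasl2 promoter is shown with its 1 match to the interferon element core GAAANNGAA, read on the opposite strand, in capitals, 150 to 142 bases before the start (RefSeq, GRCr8 chr12:47383186-47383435, minus strand, 5′ to 3′).
Oasl2: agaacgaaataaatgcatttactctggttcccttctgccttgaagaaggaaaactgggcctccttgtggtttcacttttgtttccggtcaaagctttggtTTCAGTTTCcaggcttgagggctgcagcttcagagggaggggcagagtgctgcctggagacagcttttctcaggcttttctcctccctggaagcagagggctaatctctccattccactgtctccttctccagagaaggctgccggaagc
This core was found in 8.12% of all windows and, counted by gene, in 3 of 57 members, namely Oasl2, Upp2 and Cyp4a8.

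Genes of the unfolded protein response, which make the chaperones and export machinery of the endoplasmic reticulum, mostly leaned the way of Socs2 but by small amounts. Of 24 measured, 19 were lower with fat at normal and higher at high protein at any size (23.6% of all genes), and the count was 17 with arrays centred on their medians. The median was -0.13 at normal and 0.10 at high protein. Creld2, induced under endoplasmic reticulum stress, was the only member, beside 0.622% of all genes. It read 9.60 and 9.26 on NP-HS and NP-HS-HF against 9.48 and 9.75 on HP-HS and HP-HS-HF. After median centring it was short of the limit, and 0 of the list were members. Just short of it lay Manf, a secreted protector of stressed cells (-0.26 and 0.31), Xbp1, the pathway's transcription factor (-0.23 and 0.27), the disulphide isomerase gene Pdia4 (-0.20 and 0.29) and the chaperone gene Hyou1 (-0.22 and 0.23). Derl3, which helps remove misfolded proteins, was -0.87 with fat at normal protein and 0.15 at high protein.

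**Figure D3:**
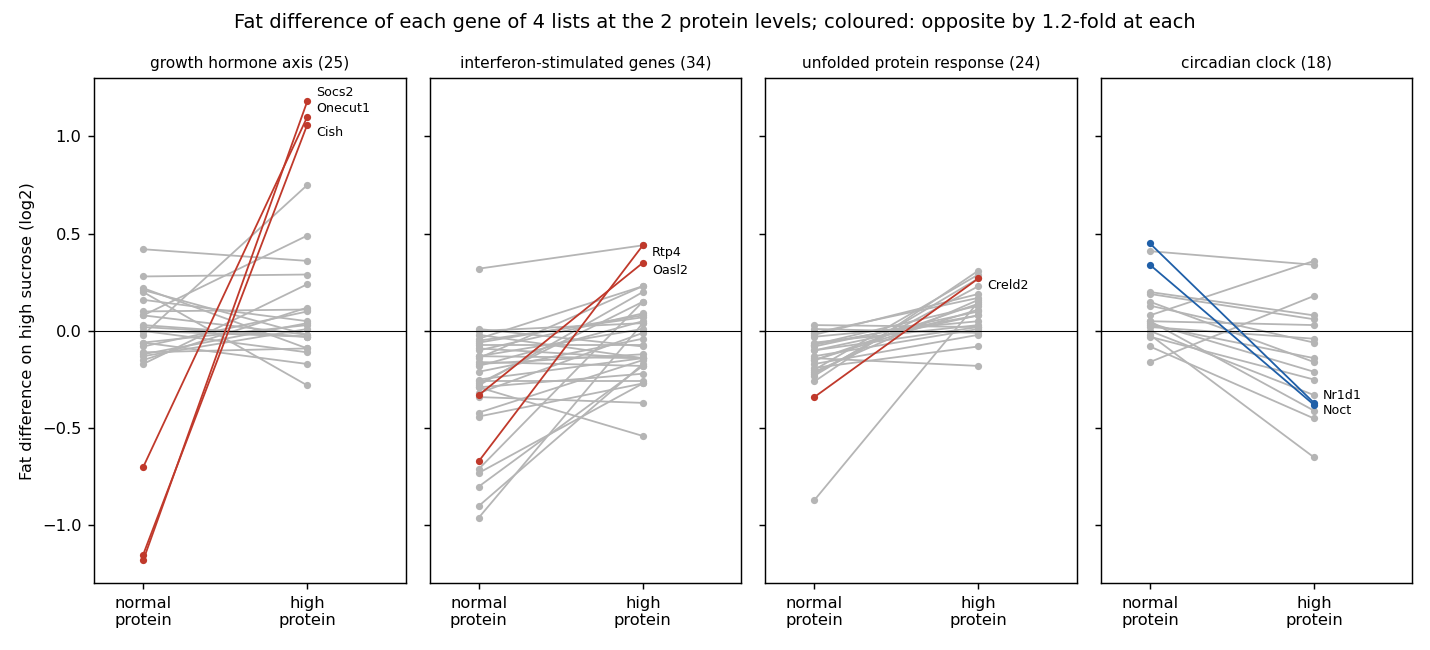
Log2 fat difference at normal (left) and high protein (right) of every measured gene of 4 lists, 1 line per gene and 1 pooled array per diet, with coloured lines for members. Socs2, Cish and Onecut1 stand apart from the other growth hormone axis genes, and most interferon genes fan out below 0 at normal protein. Of 24 unfolded protein response genes 19 cross 0 upward, and Noct and Nr1d1 cross it downward.

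Prrg4, a membrane protein with a Gla domain, had fat differences of -0.46 and 0.74. Nrep read 10.34 and 9.96 on NP-HS and NP-HS-HF, and 9.72 and 10.33 on HP-HS and HP-HS-HF. The sphingosine phosphate receptor gene S1pr4 and the cyclin gene Ccnf each had -0.41 and 0.37. For both the levels were low, with S1pr4 between 5.04 and 5.46 and Ccnf between 5.92 and 6.40. Pappa, a protease that frees insulin-like growth factors, had -0.36 and 0.42, and Kitlg, the stem cell factor, -0.41 and 0.35. Spry2, an inhibitor of receptor tyrosine kinase signals, had -0.36 and 0.29. Levels were low here too, at 5.42 to 5.91 for Pappa, 4.97 to 5.56 for Kitlg and 5.77 to 6.28 for Spry2. The remaining members of this direction, those nearest the limit included, had fat differences of -0.45 to -0.26 at normal and 0.27 to 0.50 at high protein. Among this direction's 36 genes 13 (36.1%) had a mean level under 6, beside 19.4% of all genes.

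In the reverse direction, Upp2, a liver uridine phosphorylase that breaks down the nucleoside uridine, led the genes higher with fat at normal and lower at high protein. It read 9.50, 9.62 and 10.47 on NP, NP-HS and NP-HS-HF, and 10.54, 10.50 and 9.96 on HP, HP-HS and HP-HS-HF. Its level was 1.81-fold higher with fat at normal protein and 1.45-fold lower at high protein (difference -1.38, rank 8). High protein went with the higher level on both diets low in fat and with the lower level on the high-fat diet. Gpm6a, a membrane glycoprotein best known in neurons, read 7.66, 7.63 and 8.54 on NP, NP-HS and NP-HS-HF, and 8.44, 7.80 and 7.45 on HP, HP-HS and HP-HS-HF. It had fat differences of 0.91 and -0.35, and NP-HS-HF was its highest and HP-HS-HF its lowest array. Meox2, a homeobox factor of mesenchymal and endothelial cells, read 5.07 and 5.60 on NP-HS and NP-HS-HF and 5.38 and 4.64 on HP-HS and HP-HS-HF. These levels were low, and those on NP-HS and HP-HS-HF lay below 5.14, the low-signal limit set on means over the arrays. The summed levels of 12 endothelial and 19 stellate and mesenchymal markers stayed within -0.10 and 0.10 on all 6 arrays.

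2 cytochrome P450 genes of 42 measured were members (0.622% of all genes), both in this direction. Of the 42, 14 had a difference above 0, beside 49.2% of all genes, and the median difference was -0.05. Cyp2b2, the phenobarbital-inducible drug-metabolising form, read 10.36, 9.90 and 10.32 on NP, NP-HS and NP-HS-HF, and 9.08, 9.57 and 9.02 on HP, HP-HS and HP-HS-HF. The 3 normal-protein arrays were all above the 3 high-protein arrays, and with fat differences of 0.42 and -0.56 both high-fat arrays lay close to the low-fat array of the same protein level (-0.03 and -0.07 from it). Cyp4a8, of the fatty acid omega-hydroxylase family, read 7.83, 7.14 and 7.43 on NP, NP-HS and NP-HS-HF, and 7.28, 7.55 and 6.56 on HP, HP-HS and HP-HS-HF. It had fat differences of 0.30 and -0.99, and HP-HS-HF was its lowest array by far. Both have close paralogs, Cyp2b1 and the other Cyp4a genes, so the probe sets may not be specific. Aldh1a1, which oxidises retinal to retinoic acid, read 9.07, 8.53 and 8.96 on NP, NP-HS and NP-HS-HF, and 7.42, 8.14 and 7.69 on HP, HP-HS and HP-HS-HF. The fat differences were 0.43 and -0.45, and as with Cyp2b2 the levels on high protein were all below those on normal protein.

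Of 18 circadian clock genes 2 were members (0.622% of all genes), both higher with fat at normal and lower at high protein. Noct, nocturnin, a rhythmically expressed phosphatase of nicotinamide dinucleotides, read 8.47, 8.21 and 8.65 on NP, NP-HS and NP-HS-HF, and 9.66, 9.87 and 9.50 on HP, HP-HS and HP-HS-HF. All its high-protein values were above all normal-protein values. Nr1d1, the clock repressor REV-ERB alpha, read 8.85, 8.29 and 8.62 on the normal-protein diets and 8.54, 8.51 and 8.14 on the high-protein diets in the same order. The difference was above 0 for 2 of the 18 genes (Nfil3 and Bhlhe40), beside 49.2% of all genes. The medians were 0.05 at normal and -0.15 at high protein. At high protein 6 of 18 were lower with fat by 1.2-fold or more (4.21% of all genes) and 2 higher (4.61%). At normal protein 3 were higher and 0 lower by this limit. The 6 included Per1 at -0.45 and the glucocorticoid target Tsc22d3 at -0.65. Bmal1, which activates the clock's loops, was higher with fat at both levels (0.41 and 0.34). The meal and the time of killing were set alike by protocol, and differences in killing time between pools were not tested.

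Ndufa10, a subunit of respiratory complex I, had fat differences of 0.64 and -0.52, and Ethe1, the mitochondrial persulfide dioxygenase of sulfide breakdown, 0.43 and -0.39. For Ndufa10, HP-HS (7.07) and NP-HS-HF (6.78) were the highest arrays. Bche, the plasma cholinesterase, had 0.33 and -0.77, with HP-HS (7.88) highest and HP-HS-HF (7.11) lowest. Wfdc21, a small secreted protein of the whey acidic protein family, had 0.89 and -0.30. Galc, the lysosomal galactosylceramidase, had 0.53 and -0.36. Slc16a10, a carrier of aromatic amino acids, had 0.30 and -0.44, and its high-protein values (10.06 to 10.50) were all above its normal-protein values (9.50 to 9.79). Cdkn1a, the cell-cycle inhibitor p21, had 0.33 and -0.30. Setbp1, Zfp354a, Adam4l1 and LOC102555217 complete the genes named by size or from a list, with fat differences of 0.30 to 0.37 at normal protein and -0.72 to -0.36 at high protein. The remaining members of this reverse direction had fat differences of 0.28 to 0.66 at normal and -0.50 to -0.27 at high protein, among them the sodium pump subunit gene Atp1b1 (0.31 and -0.50) and Rrm2b, a ribonucleotide reductase subunit (0.29 and -0.30).

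**Figure D4:**
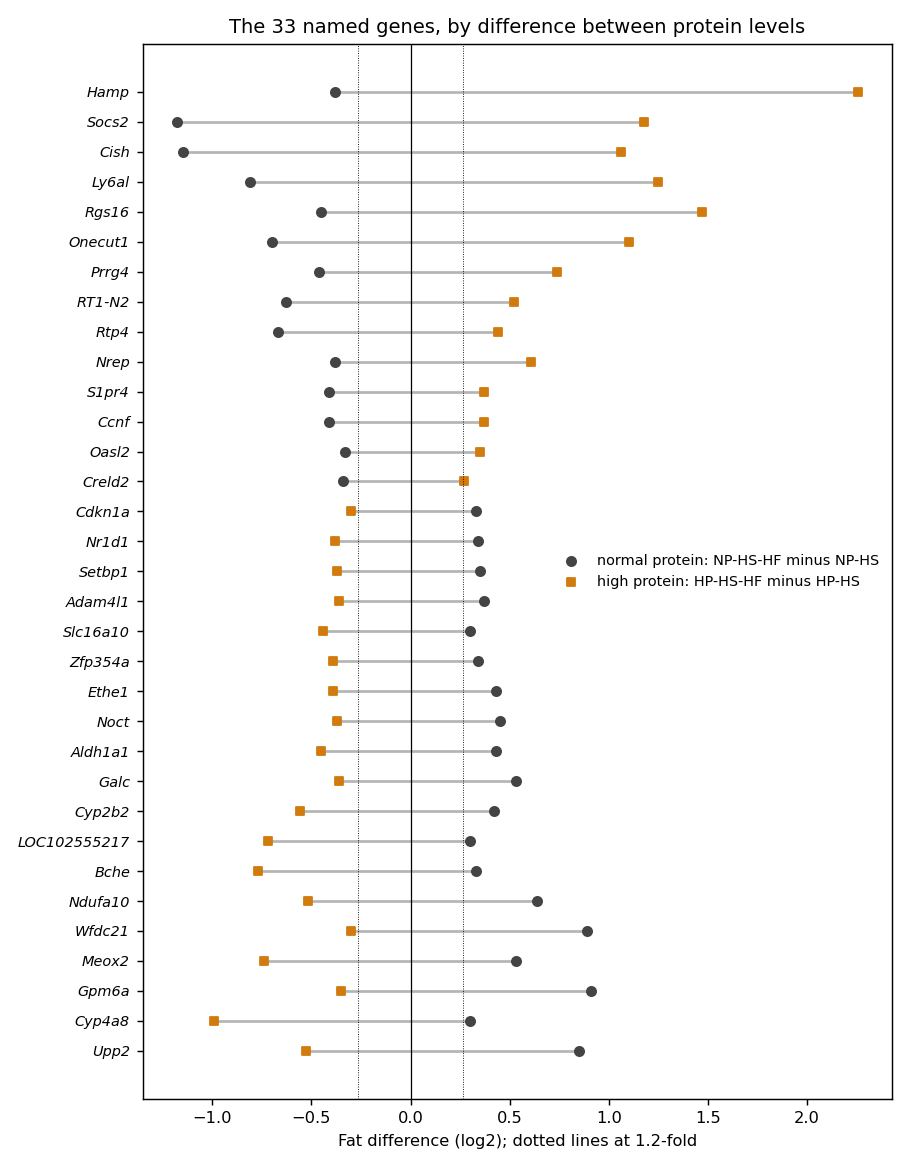
Log2 fat differences at normal (grey circles) and high protein (orange squares) for 33 members named by the size of their differences or from a gene list, ordered by the difference between them, 1 pooled array per diet, with dotted lines at 1.2-fold. The bar is longest for Hamp (2.64) and for Socs2 (2.37), and among genes of the reverse direction for Upp2 (-1.38).

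With 0.622% of all genes being members, 0 members in a list of 10 to 45 genes is near the background, and 24 of the 36 lists had 0. None of the 45 genes of amino acid breakdown was a member, and 6 had a difference above 0, beside 49.2% of all genes. At any size, 24 of them were higher with fat at normal and lower at high protein (24.7% of all genes). The urea cycle and ammonia list was alike, with 7 of 10 genes going this way at any size and the difference below 0 for all 10, from -0.41 for Nags, whose product activates the cycle, to -0.02 for Cps1, its first enzyme. Of 17 periportal hepatocyte markers, which mark the zone where much of this metabolism takes place, 10 went this way at any size and 15 had a difference below 0 (median -0.12). These markers share 6 genes with the urea cycle list and 3 with amino acid breakdown, and their part in either list's values was not tested. The any-size counts shifted with scaling, that of amino acid breakdown from 24 to 33 with median centring. With quantile normalization that of the periportal markers went from 10 to 7. None of the 19 fatty acid synthesis genes was a member. Scd, the stearoyl-CoA desaturase, was lower with fat at both levels, -0.12 at normal and -1.09 at high protein. In all, 15 members stood on any of 36 lists, in 12 of the lists, and 0 of 136 genes on lists of cell type and zone markers were members.

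The summed level of the red cell markers was lowest on NP (-0.17 against the mean of the arrays) and highest on HP (0.13), arrays the rule did not use. It was 0.06 on NP-HS, 0.01 on NP-HS-HF, -0.14 on HP-HS and 0.08 on HP-HS-HF. Of the 6 markers 4 had a difference above 0, beside 49.2% of all genes. Of 9 bile duct markers 8 had a difference above 0 (median 0.20), and their summed level was highest on HP-HS-HF at 0.34. Hemgn, a nuclear protein of red cell precursors, was itself a member with -0.30 and 0.36. The part of either cell type in the members' values was not tested.

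Large differences did not require opposite directions. Among the 20 genes with the largest difference 14 were members, and among the 50 largest 28 were, beside 0.622% of all genes. A member's difference adds the sizes of its opposite fat differences, so members rank high by construction. Slc25a30, a mitochondrial carrier, ranked 4 with fat differences of -0.14 and 2.02. Egln3, an oxygen-sensing prolyl hydroxylase, had 0.20 and 1.52, and Pdk4, the kinase that switches off pyruvate dehydrogenase, was higher with fat at both levels, 0.59 and 1.76.

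Between diets of equal fat content, members crossed over. In 33 of the 36 genes lower with fat at normal and higher at high protein, the high-protein level was below the normal-protein level on high sucrose and above it on high sucrose with high fat, and in 29 of the 35 of the reverse direction it was the other way round. Over all 11421 genes 2434 crossed the first way and 2290 the other. The rule used these arrays, so the crossing is a description. The arrays of the diets low in both sucrose and fat, NP and HP, were not used by the rule. On them 24 of 71 members (33.8%) differed between protein levels by 1.2-fold or more, beside 10.2% of all genes, and 10 (14.1%) by 1.5-fold or more, beside 1.06%. The high-protein level there was above the normal one in 14 of the 36 (38.9%) and in 18 of the 35 (51.4%), beside 51.7% of all genes. Members were chosen for large differences, which favours genes that vary between arrays, so these shares are a description. Set against NP and HP, the high-fat arrays differed in the same directions as before in 45 of the 71 members. In 14 of the 71 they did so by 1.2-fold or more at both protein levels. Over all genes these counts were 5535 and 185. The rule used the high-fat arrays of that comparison. Whether any of these shares differ from those of all genes was not tested.

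The rule used 4 of the 6 arrays, so those 4 hold a member's extreme value more often by construction, and the following counts are a description. Among the 36 genes, the array farthest from the median of the 6 was HP-HS in 13 and NP-HS-HF in 7, and among the 35 it was NP-HS-HF in 11 and HP-HS-HF in 9. Over all genes HP-HS was farthest in 14.4%, NP-HS-HF in 16.5% and HP-HS-HF in 22.4%. Another probe set of the same gene was measured for 1 member only, Btn3a2, whose chosen probe set had 0.59 and -0.33 and whose other had -0.08 and 0.01.

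The 1.2-fold limit has no gap around it. Just inside lay Sapcd1 (-0.45 and 0.27), Rad54l2 (-0.27 and 0.28) and Pabpc4l (-0.26 and 0.31). Just outside lay Akr1c1 (0.26 and -0.33), Myoc (-0.26 and 0.40) and Utp3 (0.26 and -0.27). Centring each array on its median moved the split between directions from 36 and 35 to 28 and 46. Over all 20450 probe sets above the low-signal limit, unnamed ones included, 232 (1.13%) were opposite by 1.2-fold at each level. Of these 159 have no gene name here, and 5 unnamed ones passed 2-fold at both levels, among them 10700581 (1.61 and -1.16) and 10801778 (-1.18 and 1.04).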

How the data were processed

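Liver RNA pools of 5 rats on each of 6 diets were hybridised to 1 array each. The deposited values are log2 probe set levels summarised by RMA, per the submitters' processing notes, and range from 2.40 to 13.92. No RMA version, setting or genome build was given in the sources used here. Of 29214 probe sets, the platform annotation listed 15633, of which 15310 had 1 symbol, 323 had several (not named) and 13581 were not listed. Probe sets with a mean over the arrays above the 30th percentile (log2 5.14) were kept, with 1 per gene, that of the highest mean. Differences were taken between deposited log2 values, and a fold is 2 to the power of that difference. An interaction of protein with fat leaves no degrees of freedom, so no test was run. The number of arrays limits the precision. Members and gene lists were chosen with earlier results of these data known. Named genes were, in each direction, the 12 with the largest smaller fat difference, the 8 with the largest difference between levels, list members, the 2 largest of each list, and 3 on either side of the limit. Other genes, such as members of a list beyond these, were named after their values were seen. Promoters came from RefSeq. Alternatives were other filters, folds, scalings and the mean of a gene's probe sets. Python 3.11.15, numpy 2.4.6, pandas 2.3.3, scipy 1.17.1 and matplotlib 3.10.9 were used, and the counting was tested on simulated data.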

Additional observations from a re-analysis of the deposited data

Results flagged for a closer look

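4 genes went opposite ways by 1.5-fold or more at each protein level, the only ones among the 11421 genes to do so. The difference of the fat differences, high minus normal protein on the log2 scale, was 2.37 for Socs2, 2.20 for Cish, 2.06 for Ly6al and 1.79 for Onecut1. For Ly6al the HP-HS value (4.75) lay below the low-signal limit of 5.14. With 1 pooled array per diet, the difference between the protein levels was not tested for any of the 4 genes.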

How the results depend on the processing

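No paired analysis was possible because each diet had 1 pooled array, and for the same reason no pool could be left out. The counts depended most on the fold required at each level. At 1.1-fold 539 genes went opposite ways (298 lower at normal and higher at high protein, 241 the reverse) and 745 the same way. At 1.3-fold these counts were 15 (9 and 6) and 24, and at 1.5-fold 4 (4 and 0) and 5. For probe sets the main count of 232 became 1221, 72 and 19 at these folds. A filter at the 50th percentile left 46 genes, 19 of them lower at normal and higher at high protein, and 129 probe sets, and without a filter 428 probe sets went opposite ways.

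Scaling changed the count little, to 74 genes with median centring or quantile normalization and 72 with loess, and 63, 66 and 66 of the 71 members were kept. Quantile normalization and loess split the directions as 35 and 39 and as 34 and 38. The 1.5-fold count was 4 under each of the 3 scalings. With the mean of all probe sets of a gene 70 members were kept. Of 284 values of single genes under the alternatives 283 moved by less than 0.119, the median size of the difference over genes, 0 reversed, and Btn3a2 moved to -0.41. Of 450 counts for gene lists 46 moved by over 1.5 times, among them the unfolded protein response members, 1 of which became 0 with median centring and 2 with quantile normalization.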
